A study of Homo sapiens with 22 samples.

Results

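RNA levels of 8 genes of blood vessel growth and the response to low oxygen were followed through all 22 libraries of an RNA-seq study of HT1080 cells. The 8 genes were found by their names among the 60675 genes of the count table. They were chosen with earlier results of these data known, so the choice was not independent of the measured values. They comprise 4 secreted growth factors (VEGFA, VEGFB, VEGFC and FGF2), 2 secreted proteins that restrain or modulate vessel growth (THBS1 and ANGPTL4), and the oxygen-regulated subunits of the hypoxia-inducible factors (HIF1A and EPAS1).

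HT1080 is an established human fibrosarcoma line of connective tissue origin. Lysine deacetylases (KDACs, or HDACs) remove acetyl groups from proteins, and KDAC6 holds a pair of catalytic domains while KDAC8 holds a single one. The 6 groups were untreated WT cells (WT, 4 libraries), cells of the genotype HDAC6H216A with an inactive first catalytic domain of KDAC6 (KDAC6H216A, 4 libraries), cells of the genotype HDAC6H611A with an inactive second domain (KDAC6H611A, 4 libraries), cells of the genotype HDAC8H143A with inactive KDAC8 (KDAC8H143A, 4 libraries), and WT cells given 1 µM Tubastatin A, an inhibitor of KDAC6, or 5 µM PCI-34051, an inhibitor of KDAC8, for 2 days (3 libraries each). KDAC6H216A was a pool of 3 independently isolated lines, whereas the other mutant lines were grown from single colonies, so that the effect of a mutation cannot be told apart from what a founding cell carried. KDAC8H143A also gained an unplanned base in an intron close to the edited codon. Treated cells were compared with untreated WT cells, since no vehicle-treated group is among the samples, and all comparisons with WT cells share the same 4 WT libraries.

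Total counts ran from 5248960 to 29862658 per library, and the deepest libraries were those of inhibitor-treated cells. The share of counts on mitochondrial rRNA ran from 20.8% to 23.9% in WT cells but stayed at or below 0.0259% in KDAC8H143A and at or below 0.00541% with either inhibitor. It was 0.195% in KDAC6H216A replicate 1, against 13.1% to 15.1% in the other 3 libraries of that line, and 0.173% in KDAC6H611A replicate 4, against 21.0% to 37.98%. These 2 libraries stood apart from their groups, and results that rest on them are given with and without them. No WT library had a low share, so its part in the comparisons of KDAC8H143A and of both inhibitors with WT cells cannot be told apart from that of the condition. Of 7 mesenchymal markers, 5 were present in every library, VIM, the gene of a filament protein, at 2083 to 4681 CPM (counts scaled by library size), CD44 at 309.95 to 1618, FN1 at 175 to 3255, LGALS1 at 185 to 771 and SPARC at 166 to 736. THY1 and S100A4 were near absent, at up to 2.49 and 3.26 CPM. The summed level of the 7 moved with the groups, from 6018 to 6961 CPM in WT cells to 3508 to 4703 CPM in KDAC8H143A, and was 4624 to 7941 CPM in KDAC6H216A and 3630 to 6073 CPM in KDAC6H611A. With Tubastatin A it was 8287 to 8691 CPM and with PCI-34051 8935 to 9254 CPM. Of 7 endothelial markers, TIE1 was present at 88.1 to 173 CPM, and the other 6, PECAM1, CDH5, VWF, CLDN5, EMCN and ERG, stayed at or below 1.92 CPM. In such bulk samples, fewer cells of a type and less RNA per cell cannot be told apart.

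Vessels grow when vascular endothelial growth factors bind receptors on endothelial cells, and tumour cells are a common source of these ligands. VEGFA is the principal factor for sprouting vessels, VEGFC acts mainly on lymphatic vessels, and VEGFB and FGF2 support the survival and growth of vascular and other cells. Thrombospondin 1, the product of THBS1, is a matrix protein that opposes vessel growth through the receptors CD36 and CD47. When oxygen falls, HIF-1α (HIF1A) and HIF-2α (EPAS1) escape hydroxylation by the EGLN enzymes and degradation through VHL, pair with ARNT and bind a short core motif near target genes, VEGFA and ANGPTL4 among them. ANGPTL4, an inhibitor of lipoprotein lipase, is also a target of the PPAR receptors. Oxygen acts mainly on the stability of the HIF-α proteins, so the RNA levels of HIF1A and EPAS1 are no measure of HIF activity.

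The stretches upstream of THBS1, EPAS1 and HIF1A are shown as examples, the vessel growth inhibitor and both HIF subunits, from the 5 genes that were lower than WT in a mutant line and higher in inhibitor-treated cells (VEGFC and FGF2 are the other 2, and the falls of HIF1A and FGF2 were not called once GC content and gene length were fitted). Each holds the 250 bases before the RefSeq start site on GRCh38.p14, 5′ to 3′ on the plus strand, with the HIF core (ACGTG or GCGTG, searched on both strands) in capitals. The windows are chr15:39580829-39581078 for THBS1, chr2:46297157-46297406 for EPAS1 and chr14:61695263-61695512 for HIF1A, and no GENCODE exon lies in any of them. The EPAS1 window lies within the GENCODE span of that gene, which begins at 46293667, so it is upstream of the RefSeq start only.
THBS1: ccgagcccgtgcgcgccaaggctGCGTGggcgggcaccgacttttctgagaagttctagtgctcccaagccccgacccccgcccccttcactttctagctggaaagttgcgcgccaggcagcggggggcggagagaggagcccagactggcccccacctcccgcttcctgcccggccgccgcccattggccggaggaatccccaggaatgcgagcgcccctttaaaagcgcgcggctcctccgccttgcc
EPAS1: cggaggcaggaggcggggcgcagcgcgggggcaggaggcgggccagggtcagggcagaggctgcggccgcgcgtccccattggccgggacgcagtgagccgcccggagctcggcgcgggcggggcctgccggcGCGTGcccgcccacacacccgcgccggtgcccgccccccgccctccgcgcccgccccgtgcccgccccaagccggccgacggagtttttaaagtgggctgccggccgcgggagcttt
HIF1A: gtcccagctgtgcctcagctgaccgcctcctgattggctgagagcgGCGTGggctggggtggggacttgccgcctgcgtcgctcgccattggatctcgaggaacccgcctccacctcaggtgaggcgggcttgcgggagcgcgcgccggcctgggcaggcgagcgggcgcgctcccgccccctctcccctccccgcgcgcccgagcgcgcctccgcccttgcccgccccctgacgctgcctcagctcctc
Promoter windows of 300 bases, 250 before and 50 after the start, were matched for 7 of the 8 genes, all but VEGFA. HIF1A has a second RefSeq start, at 61697712, whose window held 0 HIF cores and is left out of the motif counts given for HIF1A. With the first start of HIF1A, the HIF core was present once in the window of each of the 7 genes. It lay at position -227 from the start of THBS1, -117 from that of EPAS1 and -204 from that of HIF1A. The core occurred in 48.4% of all 35116 promoter windows of this length, and a match in a window is a description, not a site of binding. THBS1 and EPAS1 also held 1 CCAAT box each (CCAAT, in 34.6% of all windows), and HIF1A held 2. GC boxes (GGGCGG, in 45% of all windows) numbered 4, 7 and 3 in THBS1, EPAS1 and HIF1A. No AP-1 motif (TGANTCA, in 7.71% of all windows) was found in the windows of the 7 genes.

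Levels are given as CPM scaled by TMM, edgeR's trimmed mean normalization, over all 22 libraries. Fold changes come from fits of the 2 groups compared, so that their scale differs slightly from that of the CPM values. A gene was called changed at an adjusted p below 0.01. Of the 8 genes, 7 passed the filter on low counts in every comparison and ANGPTL4 passed in none. Per kilobase of exon, HIF1A had the highest level of the 8 genes in WT cells at 72.8 ± 4.81 CPM per kb (SD, n = 4), ahead of THBS1 at 43.1 ± 1.67 and VEGFC at 17.5 ± 1.17. VEGFA at 11.96 ± 0.582 and VEGFB at 11.9 ± 0.679 CPM per kb did not differ beyond their spread, and EPAS1 followed at 10.1 ± 1.01, FGF2 at 3.48 ± 0.180 and ANGPTL4 at 0.0483 ± 0.0351. Length here was the union of all annotated exons of a gene, 14431 bases for VEGFA, 2615 for VEGFC and 1970 for VEGFB. A transcript can be shorter than that union, so the place of VEGFA in this order depends on the length used.

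**Figure D1:**
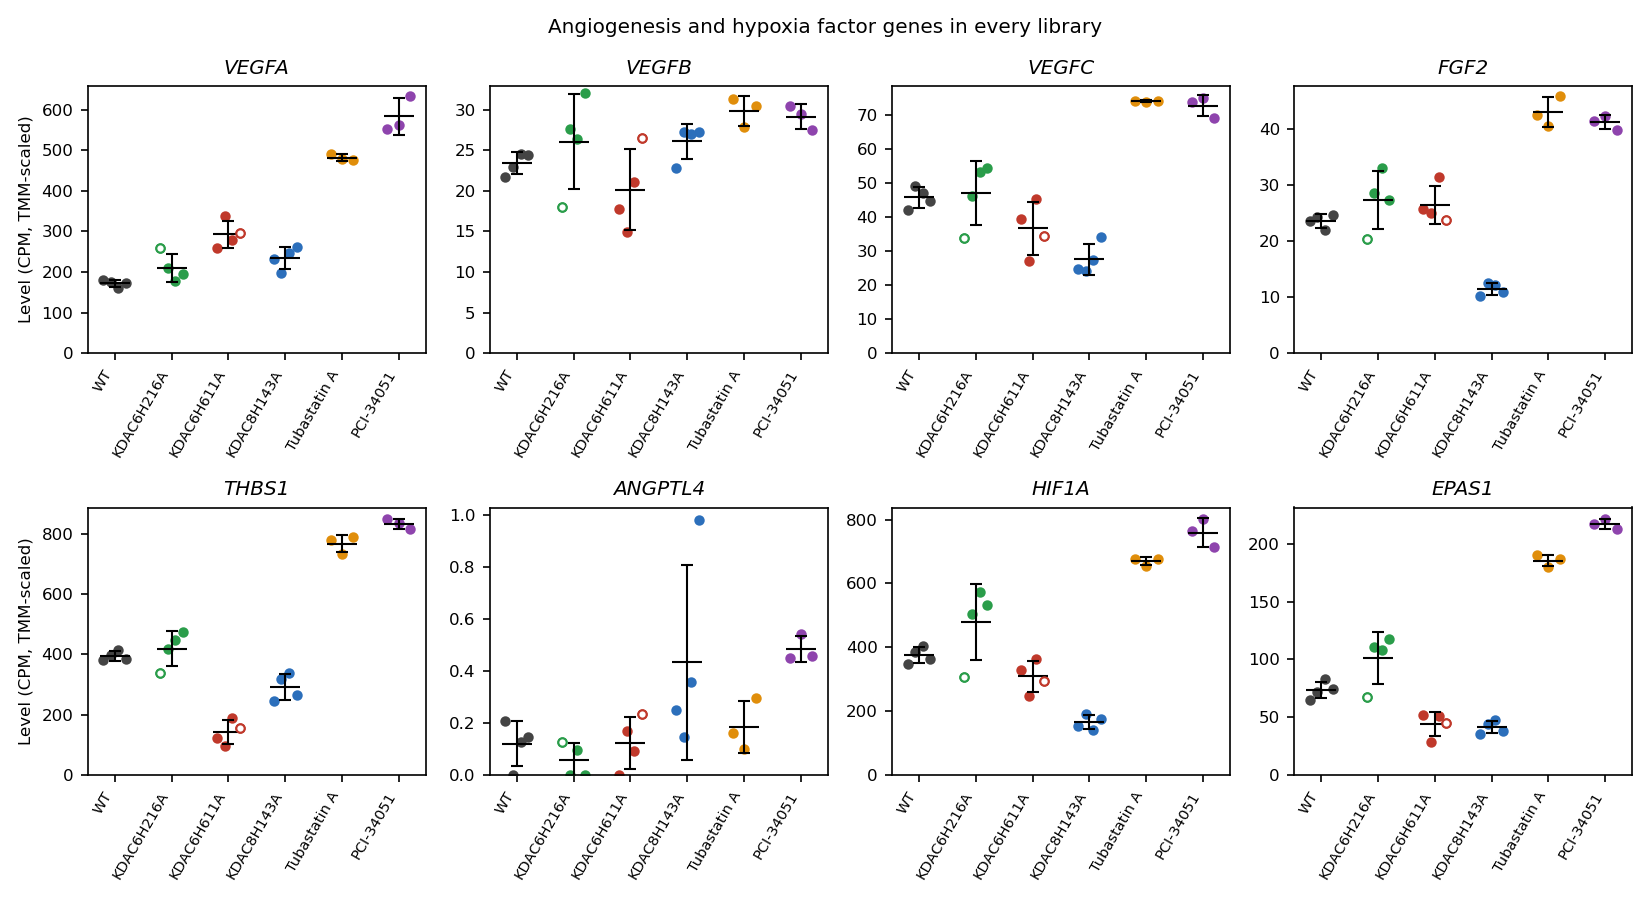
Levels of the 8 genes (CPM scaled by TMM, vertical axis) in every library of the 6 groups, with bars for mean ± SD. Open circles mark KDAC6H216A replicate 1 and KDAC6H611A replicate 4, the libraries with little mitochondrial rRNA. VEGFA was lowest in WT cells and highest with PCI-34051, THBS1 was lowest in KDAC6H611A, and HIF1A and FGF2 were lowest in KDAC8H143A.

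The mutant lines and the inhibitors differed from WT cells in unlike ways over these genes. In KDAC6H611A, 1 of the 7 tested genes rose (VEGFA) and 2 fell (THBS1 and EPAS1), where 12.3% of all 14725 genes tested were called, 6.08% higher and 6.24% lower. Without KDAC6H611A replicate 4, VEGFA and THBS1 were called, where 10.3% of all genes were. In KDAC6H216A none of the 7 was called, where 0.834% of all 14500 genes were. The unadjusted edgeR p was under 0.05 for 1 of the 7, EPAS1, and DESeq2 also called 0. Without KDAC6H216A replicate 1, HIF1A and EPAS1 rose, where 26% of all 14638 genes were called, 1786 higher and 2027 lower. In KDAC8H143A, VEGFA rose and 5 genes fell (HIF1A, FGF2, EPAS1, VEGFC and THBS1), where 58.5% of 16101 genes were called, 31.6% higher and 26.9% lower. With Tubastatin A all 7 rose, where 57.9% of 15246 genes were called and 29.3% rose. With PCI-34051 6 of the 7 rose, all but VEGFB, where 51.1% of 15346 genes were called and 25.5% rose. The mesenchymal markers also changed in these comparisons, and their part in the calls was not tested. In KDAC8H143A 4 of 6 tested fell, with CD44 at log2 -1.45, FN1 at -1.41, SPARC at -1.07 and LGALS1 at -1.04, and THY1 rose, with a median of -1.06 (-0.96 with GC content and length fitted, where the number that fell was also 4). FN1 rose by 1.62 with Tubastatin A and 2.02 with PCI-34051 on the log2 scale, and with each inhibitor 3 of 5 rose, while 1 and 2 fell. None of 5 was called in KDAC6H216A or KDAC6H611A, and without KDAC6H216A replicate 1 3 of 5 rose and 1 fell. The median log2 fold change of the 7 genes was 0.75 with Tubastatin A and 0.92 with PCI-34051, beside -0.0029 and -0.0071 over all genes tested. For KDAC6H216A it was 0.12, for KDAC6H611A -0.26 and for KDAC8H143A -0.68, beside 0.0035, 0.028 and 0.076. Scaled by total count alone, the median of all genes moved to 0.17 for KDAC6H216A, 0.041 for KDAC6H611A, 0.36 for KDAC8H143A, 0.35 for Tubastatin A and 0.38 for PCI-34051, and 1 of the 7 genes, THBS1, was called in KDAC6H611A.

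**Figure D2:**
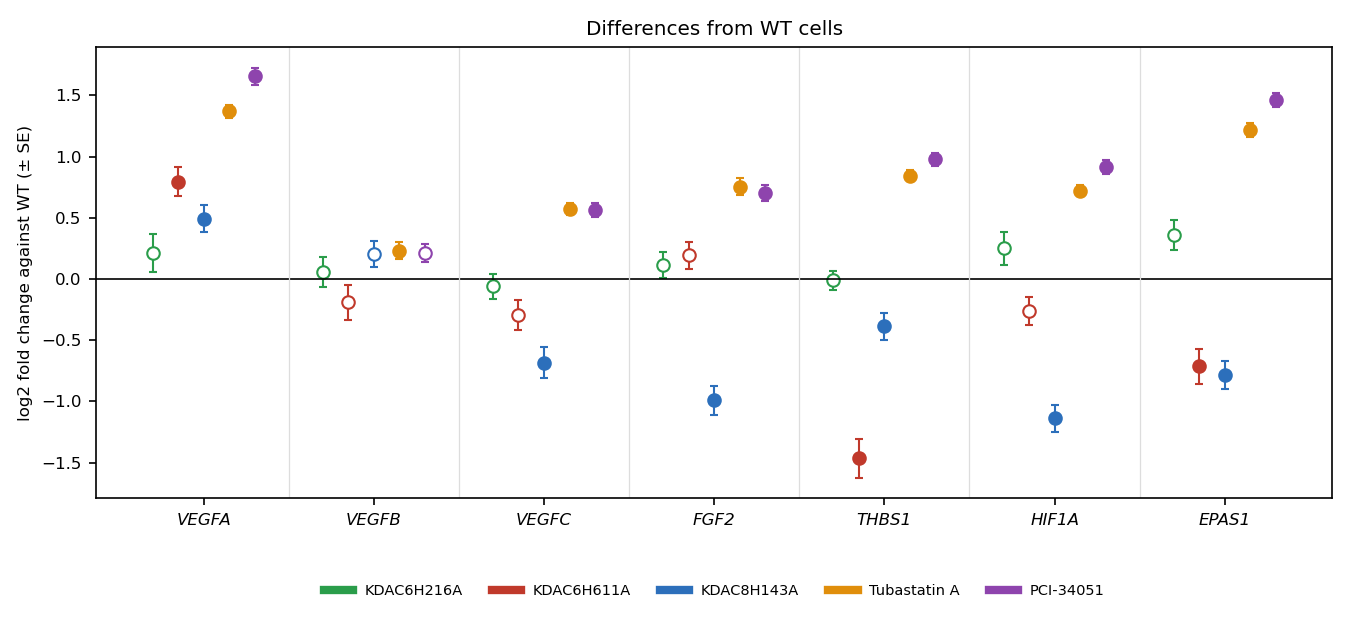
Log2 fold change against WT (vertical axis, ± SE) of the 7 genes tested, in the 3 mutant lines and with the 2 inhibitors. Filled circles mark genes called at an adjusted p below 0.01 and open circles those not called. Points of both inhibitors lie above 0 for every gene, at 0.21 to 1.66, while THBS1 in KDAC6H611A and HIF1A in KDAC8H143A lie lowest, at -1.47 and -1.14.

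The calls in KDAC8H143A changed when GC content and gene length were fitted, and the cause was not tested. The GC content of the longest transcript was 36.4% for HIF1A, 37.6% for FGF2, 45.7% for THBS1, 52.6% for EPAS1, 54.4% for VEGFC, 54.6% for VEGFA and 62.2% for VEGFB. HIF1A and FGF2 had the largest falls, while of the 3 genes at 52.6% to 54.6%, VEGFA rose and EPAS1 and VEGFC fell. Once GC content and gene length were fitted as smooth terms and removed, 3 of the 7 genes were called in that line and all 3 fell, VEGFC (log2 -0.97, edgeR adjusted p = 7.70e-06), EPAS1 (-1.08, edgeR adjusted p = 4.26e-06) and VEGFB (-0.56, edgeR adjusted p = 2.75e-03). In that fit 7569 of all 15897 genes tested were called, 4280 higher and 3289 lower. HIF1A (-0.090, edgeR adjusted p = 0.507), FGF2 (-0.10, edgeR adjusted p = 0.483), THBS1 (-0.21, edgeR adjusted p = 0.0755) and VEGFA (-0.075, edgeR adjusted p = 0.427) were not called, and VEGFA and VEGFB changed sign. EPAS1 and VEGFC were thus the genes that fell in KDAC8H143A with and without the correction. The calls in the KDAC6 lines were the same with the correction and those with Tubastatin A too, while VEGFB was also called with PCI-34051.

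VEGFA (ENSG00000112715, chr6:43770184-43786487, plus strand) was the one gene of the 8 whose mean level was above that of WT cells in all 5 other groups, with the sign in KDAC8H143A turned by the correction above. In WT cells it measured 181, 175, 161 and 173 CPM in replicates 1 to 4. KDAC6H611A libraries held 259.6, 338, 279.8 and 296 CPM, all above every WT library. KDAC8H143A libraries held 232, 197, 246 and 263 CPM, also without overlap with WT. The level was 1.73-fold that of WT in KDAC6H611A (log2 0.79 ± 0.12 SE, edgeR adjusted p = 4.36e-04) and 1.41-fold in KDAC8H143A (log2 0.49 ± 0.11, edgeR adjusted p = 1.72e-03). The call in KDAC8H143A was lost without WT replicate 3 (edgeR adjusted p = 0.0113) or KDAC8H143A replicate 3 (edgeR adjusted p = 0.0135). Treated cells held still more, 492, 479.7 and 475 CPM with Tubastatin A and 553, 563 and 635 CPM with PCI-34051. The folds over WT were 2.58 (log2 1.37 ± 0.05, edgeR adjusted p = 4.94e-14) and 3.16 (log2 1.66 ± 0.07, edgeR adjusted p = 2.35e-12). KDAC6H216A libraries held 259, 209, 177 and 195 CPM, a log2 difference of 0.21 ± 0.15 that was not called (edgeR adjusted p = 0.595). The highest of them was replicate 1, and without it the log2 difference was 0.031 ± 0.068. Exons of VEGFA share 188 of 14431 bases with ENSG00000272114 on the opposite strand.

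THBS1 (ENSG00000137801, chr15:39581079-39599466, plus strand) had the largest fall among the 8 genes. It measured 380.3, 399.5, 415 and 386 CPM in WT cells and 123, 96.8, 189.9 and 154 CPM in KDAC6H611A. The highest KDAC6H611A library lay below the lowest WT library, and the mean level was 0.362 times that of WT (log2 -1.47 ± 0.16, edgeR adjusted p = 3.65e-05). Without replicate 4 of KDAC6H611A the log2 difference was -1.51. KDAC6H216A libraries, at 339, 417, 447 and 474 CPM, spread around the WT range, with a log2 difference of -0.0086 ± 0.078 (edgeR adjusted p = 0.972). In KDAC8H143A the libraries held 246, 318, 339.8 and 265 CPM, below WT without overlap. The fall of 0.39 on the log2 scale (SE 0.11, edgeR adjusted p = 7.96e-03) was called in 2 of the 8 fits that left out 1 library, those without KDAC8H143A replicate 2 or 3, and under 5 of 10 other alternatives. Treated cells lay above WT without overlap, at 779.9, 736 and 790.3 CPM with Tubastatin A and 850.1, 837 and 817 CPM with PCI-34051. The folds were 1.80 (edgeR adjusted p = 3.31e-12) and 1.97 (edgeR adjusted p = 3.94e-11). The antisense genes FSIP1 and THBS1-AS1 share 694 of the 9158 exonic bases of THBS1, and reads there cannot be told apart because the counting is not stated to use strand.

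EPAS1 (ENSG00000116016, chr2:46293667-46386697, plus strand) fell in both KDAC6H611A and KDAC8H143A and rose with both inhibitors. It measured 65.1, 71.6, 82.8 and 74.6 CPM in WT cells, 51.6, 28.6, 50.8 and 45.1 CPM in KDAC6H611A and 35.6, 44.1, 47.4 and 38.1 CPM in KDAC8H143A. Both lines lay below WT without overlap, at log2 differences of -0.71 ± 0.14 (edgeR adjusted p = 3.47e-03) and -0.78 ± 0.11 (edgeR adjusted p = 8.16e-05). The call in KDAC6H611A was lost in 4 of the 8 fits that left out 1 library, those without WT replicate 2, 3 or 4 (edgeR adjusted p = 0.0115, 0.0168 and 0.0135) and that without KDAC6H611A replicate 4 (log2 -0.72, edgeR adjusted p = 0.0108). Tubastatin A libraries held 190.4, 180.5 and 187 CPM, 2.33-fold above WT (edgeR adjusted p = 6.18e-13), and PCI-34051 libraries 218, 222 and 214 CPM, 2.76-fold above (edgeR adjusted p = 1.62e-12). In KDAC6H216A, replicate 1 at 67.9 CPM lay within the WT range and the other 3 libraries, at 110.5, 109 and 118 CPM, lay above it. The log2 difference from WT was 0.36 ± 0.12 with all 4 libraries (edgeR adjusted p = 0.212) and 0.47 ± 0.06 without replicate 1 (edgeR adjusted p = 1.10e-05).

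HIF1A (ENSG00000100644, chr14:61695513-61748259, plus strand) had its lowest levels in KDAC8H143A, at 153, 191, 141 and 173 CPM against 348, 384, 405 and 363 CPM in WT cells. The groups did not overlap, and the log2 difference of -1.14 ± 0.11 (edgeR adjusted p = 5.59e-06) shrank to the value above once GC content and length were corrected for. KDAC6H611A libraries, at 327, 248, 364 and 294 CPM, overlapped WT, with a log2 difference of -0.26 ± 0.11 that was not called (edgeR adjusted p = 0.128). With Tubastatin A it measured 677, 656 and 678 CPM (1.65-fold, edgeR adjusted p = 5.21e-11) and with PCI-34051 763, 803 and 713 CPM (1.89-fold, edgeR adjusted p = 3.48e-10), all above every WT library. KDAC6H216A replicates 2 to 4 held 505, 572 and 534 CPM, above every WT library, while replicate 1 held 307 CPM, below every one of them. With all 4 libraries the log2 difference was 0.25 ± 0.13 (edgeR adjusted p = 0.453), and without replicate 1 it was 0.38 ± 0.05 (edgeR adjusted p = 1.94e-05). HIF1A shares 580 of its 5151 exonic bases with HIF1A-AS1 and HIF1A-AS3 on the opposite strand and ENSG00000258964 on its own.

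Among the other growth factors, VEGFC and FGF2 fell in KDAC8H143A and rose with both inhibitors. VEGFC (ENSG00000150630, chr4:176683538-176792922, minus strand) measured 42.0, 49.1, 47.2 and 44.9 CPM in WT cells and 24.7, 24.1, 27.4 and 34.2 CPM in KDAC8H143A, a log2 difference of -0.68 ± 0.13 without overlap (edgeR adjusted p = 4.75e-04). FGF2 (ENSG00000138685, chr4:122826682-122898236, plus strand) measured 23.6, 24.3, 21.97 and 24.8 CPM in WT cells and 10.3, 12.5, 12.2 and 10.9 CPM in KDAC8H143A, 0.503 times the WT level (log2 -0.99 ± 0.12, edgeR adjusted p = 1.91e-05). Neither gene was called in a KDAC6 line, where VEGFC ranged from 27.2 to 54.4 CPM and FGF2 from 20.4 to 33.0 CPM, around the WT libraries. Tubastatin A libraries held 74.2, 73.8 and 74.2 CPM of VEGFC (1.49-fold, edgeR adjusted p = 3.00e-09) and 42.6, 40.6 and 45.9 CPM of FGF2 (1.68-fold, edgeR adjusted p = 1.64e-08). PCI-34051 libraries held 74.0, 75.1 and 69.2 CPM of VEGFC (1.48-fold, edgeR adjusted p = 1.42e-07) and 41.4, 42.3 and 39.8 CPM of FGF2 (1.63-fold, edgeR adjusted p = 8.05e-08). None of these libraries overlapped WT. FGF2 shares 804 of its 6801 exonic bases with the antisense gene NUDT6.

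VEGFB (ENSG00000173511, chr11:64234584-64239264, plus strand) stayed between 14.95 and 32.05 CPM in all 22 libraries. WT libraries held 21.7, 23.0, 24.5 and 24.5 CPM, and Tubastatin A libraries 31.3, 27.8 and 30.4 CPM, a 1.17-fold rise without overlap (log2 0.23 ± 0.07, edgeR adjusted p = 7.80e-03). That call was lost in 5 of the 7 fits that left out 1 library (edgeR adjusted p from 0.0103 to 0.0354). Those were the fits without WT replicate 1, 2 or 3 and without Tubastatin A replicate 1 or 3. The call held under 5 of 10 other alternatives and was lost, among others, when counts were thinned to the smallest library (edgeR adjusted p = 0.0445). With PCI-34051 the libraries held 30.4, 29.5 and 27.4 CPM (log2 0.21 ± 0.07, edgeR adjusted p = 0.0162). The mutant lines overlapped WT, at 18.0 to 32.05 CPM in KDAC6H216A, 14.95 to 26.5 CPM in KDAC6H611A and 22.9 to 27.3 CPM in KDAC8H143A. In both KDAC6 lines an end of the range was the library with little mitochondrial rRNA, the lowest in KDAC6H216A and the highest in KDAC6H611A.

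ANGPTL4 (ENSG00000167772, chr19:8363289-8374370, plus strand) was close to the limit of detection. WT libraries held 1, 0, 1 and 1 counts, KDAC6H216A 1, 0, 1 and 0, and KDAC6H611A 0, 1, 1 and 2. KDAC8H143A held 3, 3, 5 and 12 counts, Tubastatin A 5, 3 and 9, and PCI-34051 12, 17 and 13. Per effective library size, the summed counts were 3.60 times those of WT in KDAC8H143A (exact 95% interval 1.09 to 18.7). Replicate 4 held 12 of the 23 counts behind that ratio, and without it, a choice made after seeing the data, the ratio was 2.17 (0.574 to 12.1). The ratio was 4.48 with PCI-34051 (1.43 to 22.6), 1.70 with Tubastatin A (0.493 to 9.07), 1.11 in KDAC6H611A (0.188 to 7.60) and 0.480 in KDAC6H216A (0.0401 to 4.19). These intervals cover counting error only and each rests on 3 WT counts, so a difference between libraries of a group is not in them.

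The 2 KDAC6 lines were also compared with each other, which tests whether the pooled KDAC6H216A lines and the single-colony KDAC6H611A line differed in level. The inactive domain and the founding cells cannot be told apart in it. In KDAC6H611A, THBS1 lay at 0.356 times its KDAC6H216A level (log2 -1.49 ± 0.17, edgeR adjusted p = 3.24e-04) and EPAS1 at 0.465 times (log2 -1.10 ± 0.18, edgeR adjusted p = 2.26e-03), where 9.93% of 14961 genes were called and 5.31% fell. Neither gene overlapped between the lines. The other differences were not called, with VEGFA at 0.56 ± 0.18 (edgeR adjusted p = 0.0548) and HIF1A at -0.54 ± 0.17 (edgeR adjusted p = 0.0439) nearest to the threshold. Without both libraries of little mitochondrial rRNA, 4 of the 7 genes were called, where 13.9% of all genes were. VEGFA was then higher in KDAC6H611A (log2 0.75 ± 0.15, edgeR adjusted p = 7.84e-03), and HIF1A (-0.64 ± 0.14, edgeR adjusted p = 9.71e-03), EPAS1 (-1.22 ± 0.18, edgeR adjusted p = 2.10e-03) and THBS1 (-1.57 ± 0.20, edgeR adjusted p = 1.09e-03) were lower. Leaving out KDAC6H216A replicate 1 alone gave the same 4 genes, where 19.5% of all genes were called. Without KDAC6H611A replicate 4 alone THBS1 was the one gene called (edgeR adjusted p = 2.59e-03), where 5.86% of all genes were, with EPAS1 at -1.11 (edgeR adjusted p = 0.0137). Without KDAC6H216A replicate 2, EPAS1 likewise lost its call (edgeR adjusted p = 0.0102).

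**Figure D3:**
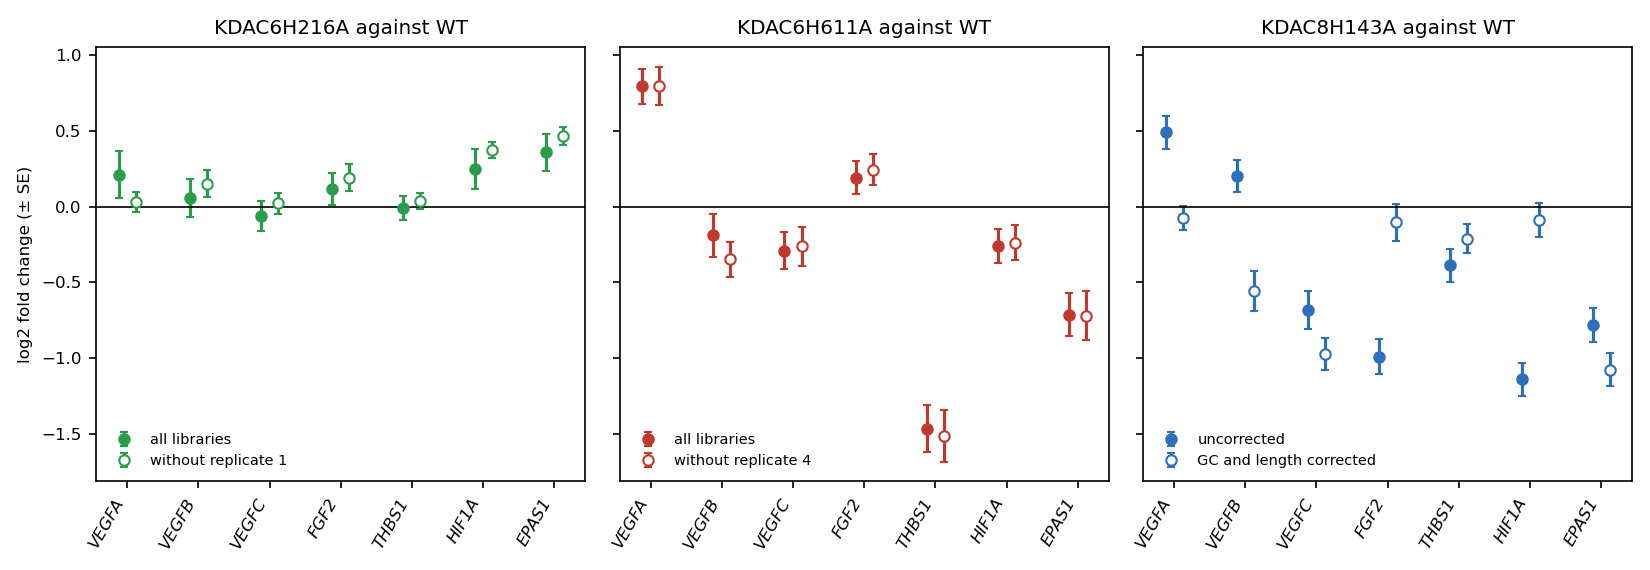
Log2 fold change against WT (vertical axis, ± SE) of the 7 genes tested in the 3 mutant lines, from the fit of all libraries (filled) and from an alternative (open), which left out the library with little mitochondrial rRNA in each KDAC6 line and corrected for GC content and gene length in KDAC8H143A. HIF1A moved from 0.25 to 0.38 in KDAC6H216A and from -1.14 to -0.090 in KDAC8H143A, while THBS1 in KDAC6H611A was at -1.47 and -1.51.

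The inhibitors were given at 1 µM and 5 µM, so their values are set side by side without a test. Log2 fold changes against WT for Tubastatin A and PCI-34051 were 1.37 and 1.66 for VEGFA, 1.22 and 1.46 for EPAS1, 0.84 and 0.98 for THBS1, 0.72 and 0.92 for HIF1A, 0.75 and 0.70 for FGF2, and 0.57 and 0.56 for VEGFC. Tubastatin A and KDAC6H611A both concern KDAC6, and THBS1 and EPAS1 rose with the first and fell in the second. PCI-34051 and KDAC8H143A both concern KDAC8, and HIF1A, EPAS1, THBS1, FGF2 and VEGFC rose with the first and fell in the second, HIF1A, THBS1 and FGF2 only without the correction for GC content and length. VEGFA went the same way in each pair, up in KDAC6H611A (0.79) and with Tubastatin A (1.37), and up in KDAC8H143A (0.49, but -0.075 and not called with the correction) and with PCI-34051 (1.66). These differences and likenesses in sign were not tested directly. When the counts were thinned to the smallest library, the 6 genes other than VEGFB were still called with both inhibitors, at log2 0.58 to 1.62.

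Of 16 angiogenic ligands, the 4 growth factors included, 11 or 12 were tested. With Tubastatin A 8 of 12 rose and none fell (median log2 0.36), and with PCI-34051 5 rose and 2 fell (median 0.30). Leaving out the 4 growth factors, 4 of 8 ligands rose with Tubastatin A, where 29.3% of all genes rose, and 2 rose and 2 fell with PCI-34051, where 25.5% of all genes rose and 51.1% were called. ANGPT1, the TIE2 ligand that stabilizes vessels, rose from 0.653 to 3.87 CPM with Tubastatin A (edgeR adjusted p = 1.01e-05) and to 5.56 CPM with PCI-34051 (edgeR adjusted p = 1.51e-06). FGF1, a relative of FGF2, rose to 8.74 CPM with Tubastatin A (edgeR adjusted p = 7.92e-03) and fell from 5.78 to 3.37 CPM with PCI-34051 (edgeR adjusted p = 5.56e-04). In KDAC6H611A 1 of 11 rose and 3 fell (median -0.19), where 12.3% of all genes were called, and the 1 that rose was VEGFA. CXCL8, an angiogenic chemokine, fell there from 13.1 ± 2.30 to 0.541 ± 0.306 CPM (SD, n = 4, log2 -4.48, edgeR adjusted p = 8.12e-07) and PGF, a VEGF family member, to 0.589 times its WT level (edgeR adjusted p = 2.49e-04). In KDAC8H143A 4 of 12 rose and 4 fell (median 0.26), or 3 and 2 of 8 without the growth factors, where 58.5% of all genes were called. CXCL8 fell there to 0.678 ± 0.361 CPM (edgeR adjusted p = 1.05e-06), and PDGFB, a growth factor for the pericytes of vessels, was at least 13.2-fold higher, at 5.95 CPM where WT libraries held at most 3 counts each, the floor used for that bound. None of the 11 was called in KDAC6H216A (median 0.06), and without its replicate 1 2 rose and 1 fell, where 26% of all genes were called.

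Of 16 receptors, 9 were tested, and FLT1, KDR and FLT4, the tyrosine kinases that bind the VEGF ligands, were below the filter in every comparison. With each inhibitor 6 of 9 rose and none fell (median log2 0.47 with Tubastatin A and 0.68 with PCI-34051), where 29.3% and 25.5% of all genes rose. NRP1, a VEGF co-receptor, rose from 556 to 979 CPM with Tubastatin A and 1163 CPM with PCI-34051 (edgeR adjusted p = 3.60e-11 and 4.89e-11). PDGFRB rose from 3.84 to 20.3 and 20.2 CPM (edgeR adjusted p = 1.79e-11 and 2.03e-10), and MET, the receptor of hepatocyte growth factor, rose from 221 to 497 and 469 CPM (edgeR adjusted p = 4.20e-13 and 1.78e-10). With PCI-34051, FGFR3 rose from 2.34 to 5.57 CPM (edgeR adjusted p = 1.56e-04). In KDAC6H611A 3 of 9 rose (median 0.48), the endothelial marker TIE1 (log2 0.60, edgeR adjusted p = 3.07e-03, named after its value was seen), FGFR3 (2.22-fold, edgeR adjusted p = 4.76e-03) and FGFR4 (2.93-fold, edgeR adjusted p = 7.75e-03), and NRP2, a co-receptor of VEGFC, fell to 0.651 times its WT level (edgeR adjusted p = 1.74e-03). FGFR3 and FGFR4 lost their calls without replicate 4 (edgeR adjusted p = 0.0111 and 0.0204) and with the correction for GC content and length (edgeR adjusted p = 0.0102 and 0.0162), and 12.3% of all genes were called with all libraries. In KDAC8H143A 3 rose and 4 fell (median 0.15), where 58.5% of all genes were called, and MET (0.257 times, edgeR adjusted p = 1.33e-05) and CD47, a receptor of thrombospondin 1 (0.270 times, edgeR adjusted p = 5.26e-05), were among those that fell. The median turned to -0.47 for receptors and to -0.13 for ligands in that line with the correction for GC content and length. In each of these lists 2 then rose and 5 fell, where 4280 of 15897 genes rose and 3289 fell. In KDAC6H216A no receptor was called. Without replicate 1, 3 of 9 rose, where 1786 of all 14638 genes rose and 26% were called.

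Angiogenesis inhibitors other than THBS1 followed its direction for the most part in treated cells. Of 12 on the list, THBS1 included, 10 were tested with either inhibitor and 8 rose and none fell (median log2 0.80 and 0.94), where 29.3% of all genes rose with Tubastatin A and 25.5% with PCI-34051. TIMP3, an inhibitor of metalloproteinases that blocks VEGF binding, rose from 17.5 ± 2.49 CPM to 58.0 ± 2.02 (SD, n = 3, edgeR adjusted p = 4.50e-13) with Tubastatin A and 60.05 ± 0.377 (SD, n = 3, edgeR adjusted p = 4.46e-12) with PCI-34051. THBS2, a relative of THBS1, rose from 92.4 CPM to 208 and 243 CPM (edgeR adjusted p = 1.34e-12 and 6.40e-12). In KDAC6H611A 1 of 9 rose and 2 fell (median -0.23), where 12.3% of all genes were called. TIMP3 fell with THBS1, to 6.35 ± 2.10 CPM (SD, n = 4, edgeR adjusted p = 2.50e-04), and VASH1, a feedback inhibitor made by endothelial cells, rose from 5.60 to 12.3 CPM (edgeR adjusted p = 2.31e-04). In KDAC8H143A 3 rose and 5 fell (median -0.39), where 31.6% of all genes rose and 26.9% fell. With the correction for GC content and length 2 rose and 5 fell there (median -0.82), where 4280 of 15897 genes rose and 3289 fell. In KDAC6H216A none of 9 was called. Without replicate 1, 3 rose, where 1786 of all 14638 genes rose and 26% were called. THBS2 was at most 1 count in each KDAC8H143A library, against 92.4 CPM in WT cells, a level at least 433-fold lower at a floor of 3 counts per library, while VASH1 rose to 14.9 CPM (edgeR adjusted p = 1.02e-05) and THBS3 from 5.43 to 13.9 CPM (edgeR adjusted p = 4.60e-05).

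Genes that set HIF levels and activity gave no single direction. Of 17, HIF1A and EPAS1 included, 13 or 14 were tested. With Tubastatin A 8 rose and 2 fell (median log2 0.32), where 57.9% of all genes were called, and with PCI-34051 6 rose and 2 fell (median 0.22), where 51.1% were. The hydroxylase genes split. EGLN1 rose from 44.7 to 77.4 CPM with Tubastatin A and 79.3 CPM with PCI-34051 (edgeR adjusted p = 1.26e-09 and 5.69e-08), and EGLN3, at 1.78 CPM with Tubastatin A, was at least 3.94-fold higher than in WT cells against a floor of 3 counts per library. EGLN2 fell from 56.9 to 35.8 and 38.7 CPM (edgeR adjusted p = 8.77e-10 and 4.78e-08). In KDAC6H611A 1 rose and 3 fell, EPAS1, EP300, the HIF coactivator p300 (0.527 times, edgeR adjusted p = 1.46e-05), and ARNT2, a partner subunit (0.688 times, edgeR adjusted p = 7.07e-03). Over all genes 12.3% were called in that line. Without KDAC6H611A replicate 4, 1 rose and 1 fell, where 10.3% of all genes were called, and ARNT2 (edgeR adjusted p = 0.0117) and EPAS1 lost their calls. In KDAC8H143A 4 rose and 6 fell, where 58.5% of all genes were called, with CITED2, which competes with HIF for p300, and CUL2, of the VHL ubiquitin ligase, among the falls (0.382 and 0.410 times, edgeR adjusted p = 4.98e-06 and 3.05e-06). With the correction for GC content and length 2 rose and 3 fell, where 7569 of 15897 genes were called. In KDAC6H216A none of 13 was called. Without replicate 1, 4 rose, HIF1A and EPAS1 among them, where 1786 of all 14638 genes rose and 26% were called.

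Most HIF target genes tested rose in treated cells. Of 27 on the list, VEGFA and ANGPTL4 included, 22 of the 25 tested rose with Tubastatin A and 1 fell, where 29.3% of all genes rose, with a median log2 fold change of 0.95 beside -0.0029 over all genes. With PCI-34051 21 of 24 rose and 1 fell, where 25.5% of all genes rose, with a median of 1.02 beside -0.0071. Without VEGFA the counts that rose were 21 of 24 and 20 of 23. CA9, a carbonic anhydrase widely used as a hypoxia marker, rose from 1.19 ± 0.653 CPM in WT cells to 28.9 ± 1.38 (SD, n = 3, 21.7-fold, edgeR adjusted p = 4.45e-14) and 25.5 ± 0.772 (SD, n = 3, 19.4-fold, edgeR adjusted p = 3.07e-12). CA12, its relative, rose from 8.96 to 48.6 and 39.8 CPM (edgeR adjusted p = 6.15e-15 and 2.18e-12), and STC2, a secreted glycoprotein, rose with PCI-34051 from 99.3 to 358 CPM (edgeR adjusted p = 6.68e-13). HK2, the hexokinase, was the gene that fell with both (log2 -0.41 and -0.54, edgeR adjusted p = 3.03e-07 and 8.39e-08), while the glucose transporter gene SLC2A1 rose by 0.35 and 0.30 (edgeR adjusted p = 3.19e-05 and 7.89e-04). HK2 and SLC2A1 were chosen for mention after their values were seen. With the correction for GC content and length 22 and 21 rose and 1 fell with each inhibitor, where 4107 of 15088 genes rose with Tubastatin A and 3702 of 15185 with PCI-34051.

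The same list was mixed in the mutant lines. In KDAC6H611A 4 of 23 rose and 3 fell, where 12.3% of all genes were called (median -0.11 beside 0.028 over all genes, and 0.0070 with the correction for GC content and length), and DDIT4, an inhibitor of mTORC1 signalling, rose from 26.2 ± 2.67 to 99.5 ± 23.1 CPM (SD, n = 4, edgeR adjusted p = 3.21e-06). The glycolytic regulator PFKFB4 rose 2.02-fold (edgeR adjusted p = 3.15e-04), and CA12 fell from 8.96 ± 0.682 to 0.903 ± 0.639 CPM (SD, n = 4, edgeR adjusted p = 4.11e-05). In KDAC8H143A 3 of 23 rose and 9 fell (median -0.30 beside 0.076), where 58.5% of all genes were called, 31.6% higher and 26.9% lower, with DDIT4 at 2.80-fold (edgeR adjusted p = 1.07e-05), and BNIP3L, a mitophagy receptor, at 0.263 times and the collagen hydroxylase P4HA1 at 0.322 times their WT levels (edgeR adjusted p = 3.93e-06 and 3.24e-06). With the correction for GC content and length 2 rose and 6 fell there, where 4280 of 15897 genes rose and 3289 fell. With scaling by total count alone 6 rose and 5 fell, where 6481 of 16101 genes rose and 2494 fell. In KDAC6H216A none of 24 was called with all libraries (median 0.17). Without replicate 1, 10 rose and none fell (median 0.18), where 1786 of all 14638 genes rose and 26% were called. Targets of the PPAR receptors were mostly below the filter, with 3 of 9 tested in each comparison. All 3, CPT1A, ACSL1 and ACADVL, rose with both inhibitors, where 29.3% of all genes rose with Tubastatin A and 25.5% with PCI-34051. CPT1A, the gate of fatty acids into mitochondria, rose by 6.57-fold and 6.51-fold (edgeR adjusted p = 1.07e-15 and 5.46e-14). ACADVL also rose in KDAC8H143A (2.28-fold, edgeR adjusted p = 6.40e-05), where 31.6% of all genes did.

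**Figure D4:**
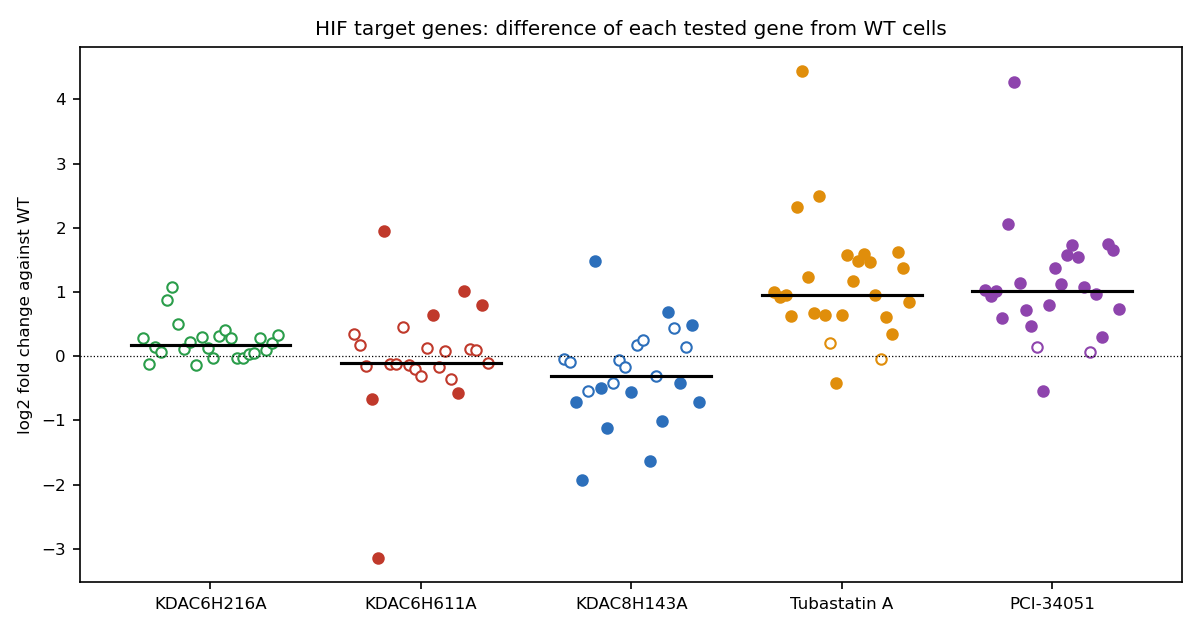
Log2 fold change against WT (vertical axis) of each tested gene of the HIF target list in the 3 mutant lines and with the 2 inhibitors, spread sideways in alphabetical order within a group. Filled circles mark genes called at an adjusted p below 0.01, open circles the rest, and lines the median. The medians were 0.17, -0.11, -0.30, 0.95 and 1.02 from left to right.

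Across the 22 libraries, the protein-coding genes whose log2 levels ran most like those of the 8 genes were found by Pearson's r over genes with a mean of at least 10 CPM. They were HOXA9 (r = 0.94) and TXNIP (0.94) for VEGFA, EGLN1 (0.98) and RAB23 (0.98) for VEGFC, ADD3 (0.99) and SLC30A1 (0.98) for FGF2, CA12 (0.98) and FAM101B (0.97) for THBS1, RAB31 (0.99) and MIB1 (0.99) for HIF1A, and COL6A3 (0.99) and NTN4 (0.98) for EPAS1. The nearest to VEGFB were GNB1 (0.93) and GNAS (0.93), and those to ANGPTL4 were IQCE (0.85) and EHBP1L1 (0.83), the latter on very few counts. The points share groups, libraries and depth, so these values describe the table and carry no test. CA12 and EGLN1 are also on the HIF target list.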

How the data were processed

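RNA was sequenced as paired ends after rRNA depletion. The authors deposited RSEM expected counts per gene, not scaled, for each library. The submitters' processing notes name Trimmomatic 0.39, Bowtie2 2.4.5, RSEM 1.3.3 and DESeq2 1.38.2 with the build GRCh38, while the annotation release and the strandedness of the counting are not given in the sources used here. Multi-mapped reads are shared out by RSEM, so levels of genes with close copies depend on that estimate.

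Expected counts were rounded. Genes were kept by edgeR's filterByExpr in each pair of groups, scaled by TMM and tested with edgeR 4.0.16 (quasi-likelihood, Benjamini-Hochberg adjustment over all genes tested, threshold 0.01) in R 4.3.3. Groups followed the sample labels, with 4 libraries per line and 3 per inhibitor, described by the study as biological replicates. The 8 genes and the gene lists were chosen with earlier results of these data known, so that no p was adjusted over a list alone. Beside the 8 genes, the text names from each list and comparison at most the 3 called genes with the largest absolute log2 fold change and no overlap between groups. HK2, SLC2A1 and values of a named gene with the other inhibitor were added after values were seen. Positions, lengths and GC content came from GENCODE 44, matched for 56558 of 60675 genes, and promoter sequences from RefSeq on GRCh38.p14. Gene length was the union of all annotated exons, also in the correction for GC content and length. The sequence of VEGFA was not used here. Replicate numbers of the labels were checked for pairing, which so few pairs could not decide, and a fit with a replicate block served as an alternative. Fits were tested on simulated data. DESeq2 1.42.0, mgcv 1.9.3 (for GC content and length), other scalings, filters, left-out libraries and a threshold of 0.05 served as alternatives. Summaries used python 3.11.15, pandas 2.3.3, numpy 2.4.6, scipy 1.17.1 and matplotlib 3.10.9. Intervals cover counting error only. Columns of values left out numbered 0.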

Additional observations from a re-analysis of the deposited data

Results flagged for a closer look

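VEGFB measured 22.9 CPM in KDAC8H143A replicate 1, apart from 27.3, 27.0 and 27.2 CPM in the other libraries of that line. The gap to the nearest library was 0.936 of the range of the group, above the critical value of 0.829, and this was the 1 group flagged of 32 groups of 4 libraries examined, where chance flags about 1 in 20. EPAS1 and THBS1 differed between the 2 KDAC6 lines in a direct test, with log2 fold changes of -1.10 (edgeR adjusted p = 2.26e-03) and -1.49 (edgeR adjusted p = 3.24e-04) for KDAC6H611A against KDAC6H216A. EPAS1 was lower in all 4 KDAC6H611A libraries than in any KDAC6H216A library, and so was THBS1.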

How the results depend on the processing

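Log2 fold changes of the 7 genes tested were recomputed under alternatives, 749 values in all. Among the alternatives was the main fit read at an adjusted p of 0.05. Of the 749, 695 kept their side of the threshold, 35 lost a call and 15 gained one. Signs that turned where neither fit made a call are among the 695, such as VEGFC in KDAC6H216A (-0.060 in the main fit, up to 0.10). The other 4 changed sign with a call in at least 1 of the fits. The 4 were VEGFA (-0.075 and -0.074) and VEGFB (-0.56 and -0.57) in KDAC8H143A with the correction for GC content and length, without and with a replicate block, where 3 and 3 of the 7 genes were called in place of 6. Over the table those 2 fits called 7569 and 7493 of 15897 genes. With total count scaling 1 gene was called in KDAC6H611A. For KDAC6H611A against KDAC6H216A, 4 were called in a fit of all groups and 4 without both libraries of little mitochondrial rRNA, an alternative chosen after seeing the data. Leaving out 1 library at a time gave 0 to 2 called genes in KDAC6H216A, 2 to 3 in KDAC6H611A, 4 to 6 in KDAC8H143A, 6 to 7 with Tubastatin A, 6 to 6 with PCI-34051 and 1 to 4 between the KDAC6 lines. The cause of these changes was not tested.

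Same-numbered libraries did not deviate together throughout. In each comparison the lowest correlation was at or below 0.00209, but the values were 0.00209 to 0.326 in KDAC6H216A and -0.364 to 0.572 between the KDAC6 lines. Of 6 or 8 libraries, 1 to 4 correlated best with their own number. So few pairs cannot decide whether a number marks a shared batch. With the replicate block 0, 3, 6, 6, 6 and 2 of the genes were called in the order of the comparisons above, and 41 of 42 values kept their call, the exception being VEGFB with Tubastatin A (0.25, edgeR adjusted p = 0.0163). Over the whole table the block gave 66 called genes in place of 121 in KDAC6H216A and 930 in place of 1485 between the KDAC6 lines.

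Table-wide counts moved more than the calls of the 7 genes. KDAC6H216A had 28 to 3813 called genes when 1 library was left out (3813 without its replicate 1) and 62 to 443 otherwise. KDAC6H611A had 1122 to 2908 (2908 without its replicate 2) and 913 to 3383. The 3383 came from the main fit read at an adjusted p of 0.05, and the next highest of that range was 2468, without the filter on low counts. The KDAC6 lines differed in 772 to 3041 genes and 781 to 3382. A fit of all groups called 4607 genes with Tubastatin A and 4341 with PCI-34051, in place of 8821 and 7835. With total count scaling 6481 genes were higher and 2494 lower in KDAC8H143A (otherwise 5093 and 4326), 7910 and 1846 with Tubastatin A (4461 and 4360), 7893 and 1477 with PCI-34051 (3911 and 3924), and 358 and 85 in KDAC6H216A (31 and 90). Depth limits ANGPTL4, with at most 17 counts in a library, and genes near the filter. WT libraries were shallower than those of treated cells.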
